A study of Mus musculus with 24 samples.

Results

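The 10 genes described here are Nfe2l2, which encodes the transcription factor NRF2, its inhibitor Keap1, and 8 genes of antioxidant enzymes commonly counted as NRF2 targets, namely Nqo1, Gclc, Gclm, Hmox1, Txnrd1, Srxn1, Gsr and Cat. They were chosen by gene name from the 55421 genes counted in hepatocytes of 24 male mice, and all 10 had enough counts to be among the 13583 genes tested. The mice formed 4 groups of 6. Young mice carried the label C57BL/6N and 6 months of age, and old mice the label C57BL/6J and 24 months, so by the labels age and substrain cannot be told apart. Nnt, a gene that is partly deleted in C57BL/6J, had 692 counts over all 24 mice. Its group means were 1.97 CPM in YND, 2.18 in YHFD, 1.52 in OND and 1.59 in OHFD. These counts are few and cover the gene as a whole, and the substrain of the mice was not tested. Each age received a normal diet, which the labels name as a Teklad chow, or the high-fat diet 58Y1 of TestDiet, in which most of the energy came from fat, for 9 weeks. The groups are called YND (young, normal diet), YHFD (young, high-fat diet), OND (old, normal diet) and OHFD (old, high-fat diet). The paper that describes the mice gives other ages and another normal diet than the labels, and the labels are followed here. None of the mice carried an engineered allele according to the labels, and all were male. Hepatocytes were isolated by collagenase perfusion, low-speed washing and a gradient before polyA RNA was sequenced, and nothing says that animals were pooled. Libraries belonged to 2 named batches with 3 mice of each group in either batch, except that OND had 2 of its mice in batch 1 and the other 4 in batch 2. The labels say nothing more about what a batch was.

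NRF2 is held in the cytoplasm by KEAP1, which hands it to a ubiquitin ligase for degradation. When oxidants or electrophiles modify cysteines of KEAP1, newly made NRF2 escapes, enters the nucleus, pairs with a small MAF protein and binds antioxidant response elements near genes for glutathione synthesis, thioredoxin recycling, quinone reduction and heme breakdown. In the liver this program is known for protecting hepatocytes during drug metabolism and lipid overload, and the amount of Nfe2l2 mRNA says little about it because control lies mostly in the stability of the protein.

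The promoters of 5 of the enzyme genes are shown because their transcripts split into those that were lower in OHFD than in YND (Gclm, Txnrd1, Cat) and those that did not pass the test in any comparison (Srxn1, Nqo1). Sequences were taken from RefSeq on GRCm38.p6 and run 5′ to 3′ on the strand of the gene, from 250 bases before to 50 bases after the annotated start. Capitals mark the letters TGACNNNGC, the core of the antioxidant response element, or the variant TGAGNNNGC, searched on both strands. A match on the opposite strand appears as its reverse complement.
Gclm, chr3:122245307-122245606, plus strand: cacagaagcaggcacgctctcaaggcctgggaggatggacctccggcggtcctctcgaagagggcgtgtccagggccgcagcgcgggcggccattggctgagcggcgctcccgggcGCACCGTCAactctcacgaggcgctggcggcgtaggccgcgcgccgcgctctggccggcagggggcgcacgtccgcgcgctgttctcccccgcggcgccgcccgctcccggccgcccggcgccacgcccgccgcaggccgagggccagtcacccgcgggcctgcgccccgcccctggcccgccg
Txnrd1, chr10:82858956-82859255, plus strand: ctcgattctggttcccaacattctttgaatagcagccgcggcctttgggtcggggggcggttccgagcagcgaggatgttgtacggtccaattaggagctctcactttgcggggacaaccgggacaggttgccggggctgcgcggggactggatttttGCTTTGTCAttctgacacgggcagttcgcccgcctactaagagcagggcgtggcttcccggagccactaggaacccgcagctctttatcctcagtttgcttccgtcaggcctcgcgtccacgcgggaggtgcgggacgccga
Cat, chr2:103485104-103485403, minus strand: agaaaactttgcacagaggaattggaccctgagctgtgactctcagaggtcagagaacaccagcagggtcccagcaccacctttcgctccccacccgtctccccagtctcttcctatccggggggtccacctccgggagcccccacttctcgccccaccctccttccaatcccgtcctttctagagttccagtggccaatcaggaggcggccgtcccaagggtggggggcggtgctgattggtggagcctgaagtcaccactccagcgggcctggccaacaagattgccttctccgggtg
Srxn1, chr2:152105274-152105573, plus strand: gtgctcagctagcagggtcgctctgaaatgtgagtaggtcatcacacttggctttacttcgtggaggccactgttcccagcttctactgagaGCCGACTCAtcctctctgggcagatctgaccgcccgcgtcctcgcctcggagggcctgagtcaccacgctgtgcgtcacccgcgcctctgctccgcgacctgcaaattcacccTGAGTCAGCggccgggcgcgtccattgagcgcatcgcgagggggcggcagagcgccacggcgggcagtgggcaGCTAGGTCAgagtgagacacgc
Nqo1, chr8:107403156-107403455, minus strand: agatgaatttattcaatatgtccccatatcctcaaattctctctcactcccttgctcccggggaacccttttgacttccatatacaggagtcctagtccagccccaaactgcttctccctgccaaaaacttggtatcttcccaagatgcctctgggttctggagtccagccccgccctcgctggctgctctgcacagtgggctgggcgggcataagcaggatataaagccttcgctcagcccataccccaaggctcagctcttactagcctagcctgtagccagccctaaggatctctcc
RefSeq promoters were found for 7 of the 10 genes, 9 promoters in all because Txnrd1 has 3 annotated starts, and Gclc, Gsr and Hmox1 had no entry. TGACNNNGC occurred in a promoter of 4 genes, once each in Nfe2l2 (TGACTCCGC, starting 240 bases before the start), Gclm (TGACGGTGC on the opposite strand, 134 bases before), the Txnrd1 promoter shown (TGACAAAGC on the opposite strand, 92 bases before) and Srxn1 (TGACCTAGC on the opposite strand, 28 bases after). TGAGNNNGC occurred only in Srxn1 among these promoters, as TGAGTCAGC on the strand of the gene 45 bases before the start and as TGAGTCGGC on the opposite strand 158 bases before it. Among 32544 mouse promoters of the same length, 12.4% held TGACNNNGC, 17.8% held TGAGNNNGC and 27.9% held either. A match is a run of letters and not a measured binding site. The windows of Cat, Keap1 and Nqo1 and the other 2 windows of Txnrd1 held neither, and sequence outside the windows was not searched.

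Between 9200332 and 22185069 reads per mouse were counted on genes, and the depth was lowest in the OHFD mice. All 8 hepatocyte markers were detected in every group, with a summed level from 40157 to 154062 CPM, CPM being counts scaled to library size by edgeR's TMM method. Kupffer cell and macrophage markers, 12 genes with none at 0 in all mice, were also present. Their summed level was 1.95 to 90.9 CPM in YND, 17.1 to 235 in YHFD, 63.8 to 1479 in OND and 74.4 to 753 in OHFD. Differences between groups were tested by edgeR's quasi-likelihood test on all 13583 genes with terms for group and batch, and a gene passed at an adjusted p under 0.05 (Benjamini-Hochberg). In bulk RNA, fewer cells of a type and less RNA per cell cannot be told apart. The library of OND replicate 4 stood apart, with the highest Kupffer cell marker sum, the lowest hepatocyte marker sum and 34.3% of its counts on its 10 most abundant genes, against 16.4% to 28.7% in the other libraries. Results that rest on mice of this kind are given with and without the 4 mice whose Kupffer cell marker sum was over 500 CPM (OND replicates 3 and 4, OHFD replicates 4 and 6), a setting chosen after seeing the data.

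Cat, which encodes the peroxisomal enzyme that breaks down hydrogen peroxide, had by far the highest level per length of the 10 genes. Its mean over the 24 mice was 81.6 FPKM, and its lowest mouse, at 36.6 FPKM, lay above the highest mouse of every other gene. Gclc (8.97 FPKM), Gclm (8.82), Srxn1 (8.30) and Keap1 (4.90) followed, with ranges over mice that overlapped. Nfe2l2 had 2.53 FPKM, and its highest mouse (3.36) lay just below the lowest mouse of Keap1 (3.40). Txnrd1 (1.97 FPKM), Hmox1 (1.77), Gsr (1.43) and Nqo1 (0.565) came last, and neighbours in this order overlapped. The middle of the order depended on the length used. With CPM divided by the summed exon length, Cat, Gclc and Gclm still came first and Nqo1 last, but Gsr moved from place 9 to 4 and Keap1 from place 5 to 8.

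**Figure D1:**
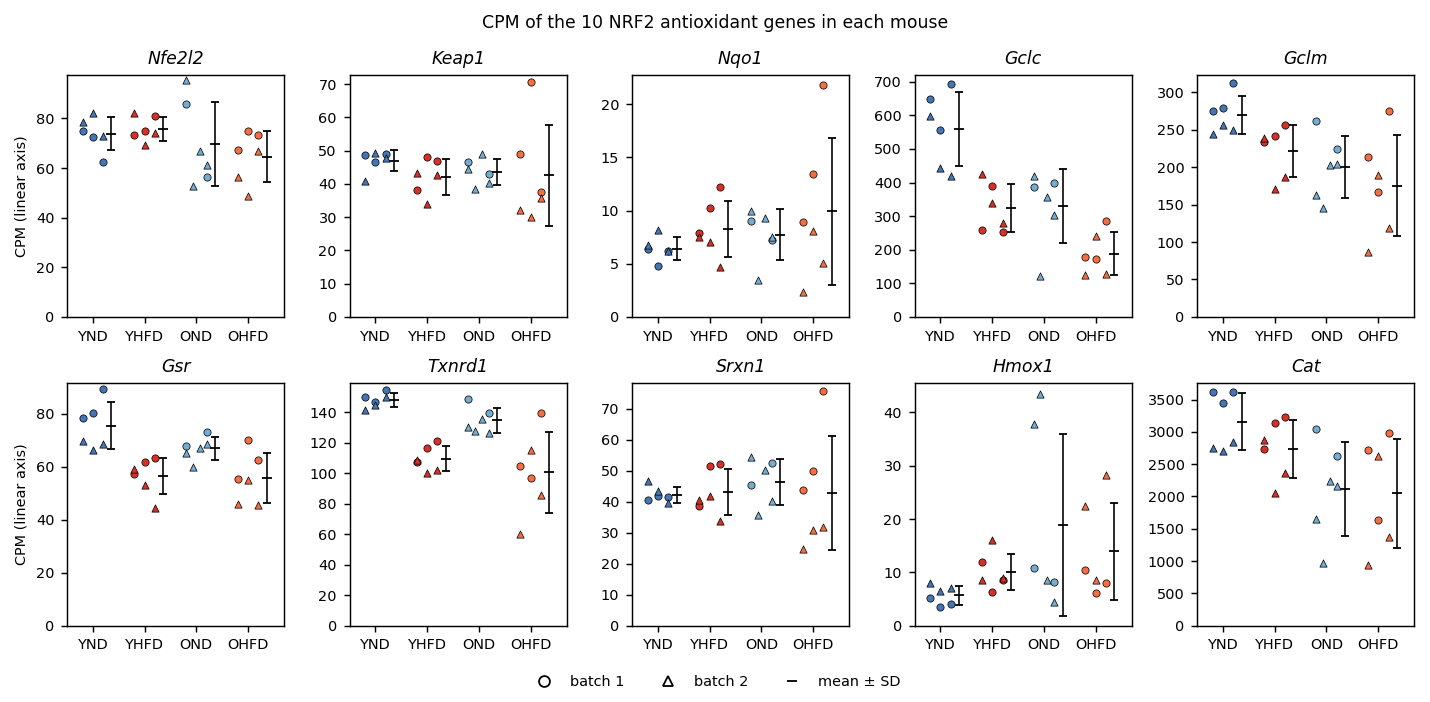
Level of each of the 10 genes in each mouse, in CPM on a linear axis that starts at 0, for the 4 groups. Circles are mice of batch 1, triangles mice of batch 2, and the bar beside each group is the mean with its SD (n = 6). All 6 OHFD mice lie below all 6 YND mice for Gclc and Txnrd1, and 2 OND and 2 OHFD mice lie high for Hmox1.

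Most calls among these genes were in OHFD against YND, the comparison in which both diet and age differ. There, 6 of the 10 genes passed, where 30.2% of all tested genes did. Gclc, Gclm, Gsr, Txnrd1 and Cat were lower (5 of 10, against 12.9% of all genes lower) and Hmox1 was higher (1 of 10, against 17.3% higher). The median log2 fold change of the 10 genes was -0.32, and that of all tested genes 0.04. Of the 8 hepatocyte markers, 3 were lower and 1 higher in that comparison with a median of -0.52, and the part of this shift in the falls of the 10 genes was not tested.

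With the high-fat diet, 2 of the 10 genes were lower in young mice, Gsr and Txnrd1, where 3.5% of all genes passed. In old mice Gclc and Txnrd1 were lower, again 2 of 10, where 3.01% of all genes passed. The median log2 fold change of the 10 genes was -0.18 in young and -0.25 in old mice, against 0.01 and -0.01 for all genes. The 8 hepatocyte markers had medians of -0.24 and -0.19 in the same comparisons and the Kupffer cell markers 2.22 and -0.24. Between the ages on the normal diet, 1 gene passed, a rise of Hmox1, where 8.5% of all genes passed. On the high-fat diet, 0 of the 10 genes passed between old and young mice, where 2.24% of all genes passed. At an unadjusted p under 0.05, 3 genes did so by edgeR, and DESeq2 called 1 gene after adjustment and limma 0. Without the 4 mice high in Kupffer cell markers, 4 of the 10 genes passed with diet in young mice, 1 with diet in old mice, 0 with age on either diet and 5 in OHFD against YND. The shares of all genes that passed were then 7.9%, 2.95%, 0.692% for age on either diet, and 19.2%. Several comparisons share a group of mice, so their values are set side by side and are not independent.

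Whether the response to diet differed with age was tested by the interaction, in which 0 of the 10 genes and 0% of all genes passed by edgeR's quasi-likelihood test. At an unadjusted p under 0.05, 1247 of 13583 genes did so, and 1 of the 10 genes, Hmox1. DESeq2 called 7 genes of the whole table after adjustment and limma 0, none of them among the 10. For Gclc, the log2 interaction was -0.09 with a standard error (SE) of 0.33, so the falls of Gclc with diet in young and in old mice were not distinguished.

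**Figure D2:**
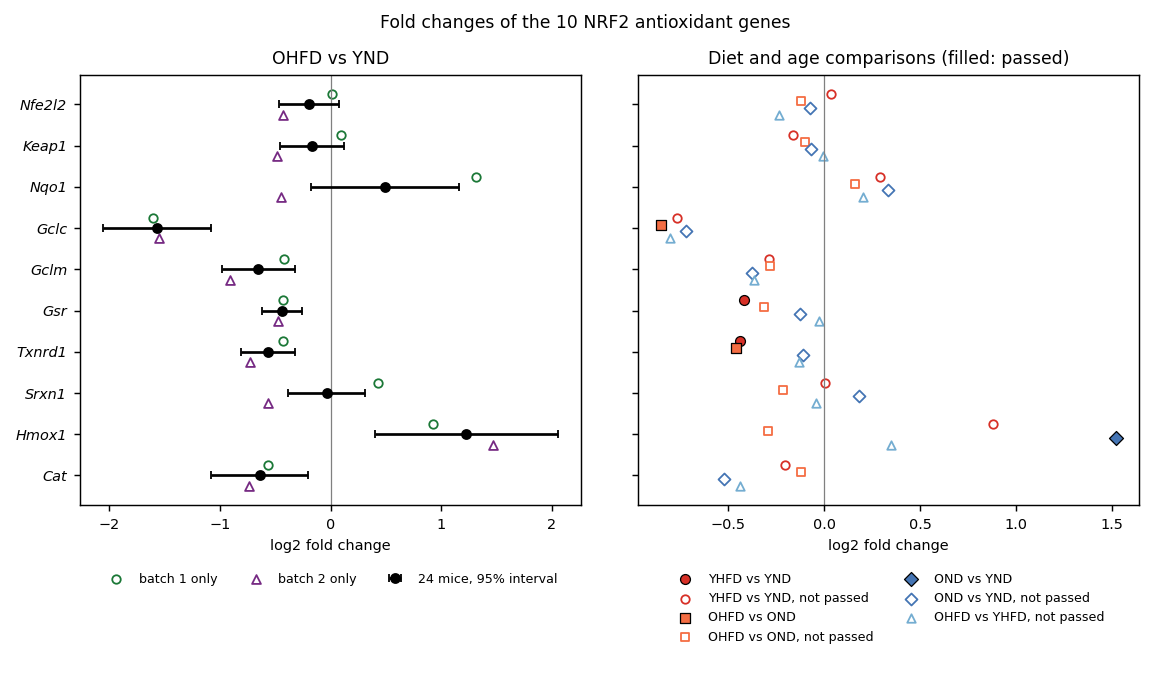
Log2 fold changes of the 10 genes by edgeR. On the left, OHFD against YND, with black points and 95% intervals from all 24 mice, circles for batch 1 alone and triangles for batch 2 alone. On the right, the effect of diet in young and old mice and of age on each diet, with filled symbols for the 5 changes that passed. Gclc lies farthest to the left in both batches, and Nqo1 and Srxn1 lie on opposite sides of 0 in the 2 batches.

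The regulators themselves passed in no comparison. Nfe2l2 (ENSMUSG00000015839, chr2:75675513-75704641 of GRCm38, minus strand) had 62.2, 73.99 and 82.1 CPM as lowest, median and highest mouse of YND, and 69.4, 74.5 and 82.2 CPM in YHFD. It had 52.7, 64.2 and 95.4 CPM in OND and 48.6, 67.2 and 74.7 CPM in OHFD. The groups overlapped throughout, with a wider spread in old mice. OHFD against YND gave a log2 fold change of -0.20 with a 95% interval from -0.47 to 0.08 (edgeR's quasi-likelihood test, Benjamini-Hochberg adjusted p = 0.267). It was 0.01 in batch 1 and -0.43 in batch 2.

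Keap1 (ENSMUSG00000003308, chr9:21229730-21239361, minus strand), the adaptor that presents NRF2 for degradation, also passed in no comparison. Its lowest, median and highest levels were 40.8, 48.2 and 49.4 CPM in YND, 33.8, 42.9 and 48.1 in YHFD and 38.4, 43.6 and 48.8 in OND. In OHFD they were 30.05, 36.7 and 70.7 CPM, the widest spread of the 4 groups, with 4 mice below and 1 mouse above every YND mouse. The log2 fold change of OHFD against YND was -0.17, with a 95% interval from -0.46 to 0.12 (edgeR's quasi-likelihood test, Benjamini-Hochberg adjusted p = 0.371), 0.09 in batch 1 and -0.49 in batch 2. Without OHFD replicate 2, which had 70.7 CPM, it was -0.34 and passed (edgeR, adjusted p = 0.0189).

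The enzyme that makes the precursor of glutathione, glutamate-cysteine ligase, showed the largest fall of the 10 genes. Gclc (ENSMUSG00000032350, chr9:77754535-77794485, plus strand) encodes its catalytic subunit. Its lowest, median and highest mice had 418, 577 and 693 CPM in YND, 253, 308 and 425 in YHFD, 123, 371 and 419 in OND and 124, 175 and 285 in OHFD. Every OHFD mouse lay below every YND mouse, and 5 of 6 YHFD mice and 5 of 6 OND mice did so too. The means were 559 ± 110 (SD, n = 6), 324 ± 71.9, 331 ± 110 and 188 ± 63.5 CPM in the same order. OHFD had 0.337 times the level of YND, a log2 fold change of -1.57 (SE 0.24, Benjamini-Hochberg adjusted p = 0.000135 in edgeR's quasi-likelihood test), -1.60 in batch 1 and -1.55 in batch 2. Of the changes of the 10 genes that passed, it alone still passed in all 10 alternative settings, with an adjusted p of at most 0.0474, and without any single mouse.

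Each single step of that fall was near the threshold. With the high-fat diet Gclc fell by 0.85 on the log2 scale in old mice and passed (SE 0.24, edgeR's quasi-likelihood test, adjusted p = 0.0476). The value in young mice was -0.77 (SE 0.23, edgeR's adjusted p = 0.0672). With age it was -0.72 on the normal diet (edgeR's adjusted p = 0.059) and -0.80 on the high-fat diet (edgeR's adjusted p = 0.0654). The diet values were -0.93 and -0.85 in old mice and -1.07 and -0.46 in young mice for batches 1 and 2. The call in old mice was lost when any of 17 mice was left out, with edgeR's adjusted p up to 0.125. It was kept without YND replicate 5 or 6, YHFD replicate 3 or 4, OND replicate 4, or OHFD replicate 3 or 5. In turn, Gclc passed in young mice without YHFD replicate 4 or OND replicate 4 (edgeR, adjusted p = 0.0386 and 0.0248), and with age on the normal diet without OND replicate 3 (adjusted p = 0.0479). With age on the high-fat diet it passed without OND replicate 4, OHFD replicate 3 or OHFD replicate 5 (edgeR, adjusted p = 0.0257, 0.0265 and 0.0302). Without the 4 mice high in Kupffer cell markers, Gclc passed with diet in young and old mice, at -0.765 and -0.75 (edgeR, adjusted p = 0.00974 and 0.0487). With age it was then -0.61 on the normal and -0.60 on the high-fat diet and did not pass (edgeR, adjusted p = 0.123 and 0.117). DESeq2 with all mice called Gclc with diet in young mice (adjusted p = 0.0225) and with age on either diet (adjusted p = 0.0321 and 0.0203).

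Gclm (ENSMUSG00000028124, chr3:122245557-122270732, plus strand), the modifier subunit that raises the efficiency of the catalytic one, was also highest in YND and lowest in OHFD by mean, with smaller changes. Its lowest, median and highest levels were 244, 265 and 312 CPM in YND, 171, 236 and 257 in YHFD, 145, 204 and 261 in OND and 87.0, 178 and 276 in OHFD. Of the OHFD mice, 5 of 6 lay below every YND mouse, and the same held for 5 of 6 YHFD and 5 of 6 OND mice. The comparison of OHFD with YND gave -0.65 on the log2 scale (SE 0.16, adjusted p = 0.0048 by edgeR's quasi-likelihood test), -0.43 in batch 1 and -0.91 in batch 2. No single step passed, at -0.29 and -0.28 for diet in young and old mice and -0.37 for age on either diet. Its promoter, shown near the beginning, holds a TGACNNNGC match on the opposite strand.

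The reductases that recycle glutathione and thioredoxin were lower with the high-fat diet and did not pass between the ages on either diet. Gsr (ENSMUSG00000031584, chr8:33652523-33698163, plus strand) encodes glutathione reductase, which returns oxidised glutathione to its reduced form with NADPH. Its lowest, median and highest levels were 66.3, 74.1 and 89.3 CPM in YND, 44.6, 58.2 and 63.2 in YHFD, 60.0, 67.3 and 73.1 in OND and 45.5, 55.3 and 70.2 in OHFD. The 2 young groups did not overlap. The log2 fold change with diet was -0.41 in young mice (SE 0.09, edgeR's quasi-likelihood test, adjusted p = 0.0132), -0.44 in batch 1 and -0.36 in batch 2. Without YHFD replicate 1 it was -0.36 and did not pass (edgeR, adjusted p = 0.0591). The call was also lost without the batch term and without the count filter (edgeR, adjusted p = 0.0635 and 0.113). It was lost in batch 1 and in batch 2 alone as well (edgeR, adjusted p = 0.173 and 0.586). In old mice the log2 fold change was -0.32 (edgeR's adjusted p = 0.0544), and it passed without YND replicate 5, YND replicate 6 or OHFD replicate 2 (edgeR, adjusted p = 0.0426, 0.0433 and 0.0251). OHFD against YND gave -0.44 and passed (SE 0.09, edgeR's adjusted p = 0.0014), while OND against YND gave -0.12 (edgeR's adjusted p = 0.449).

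Txnrd1 (ENSMUSG00000020250, chr10:82833951-82897712, plus strand) encodes the cytosolic thioredoxin reductase, a selenoprotein. It had the tightest YND group of the 10 genes, with 141, 148 and 154 CPM as lowest, median and highest. The levels were 100, 108 and 121 CPM in YHFD, 126, 133 and 149 in OND and 60.2, 101 and 139 in OHFD. All YHFD and all OHFD mice lay below all YND mice, and 5 of 6 OHFD mice lay below all OND mice. With diet the log2 fold change was -0.44 in young mice (SE 0.12, edgeR's quasi-likelihood test, adjusted p = 0.0428) and -0.46 in old mice (SE 0.12, adjusted p = 0.0363). Batches 1 and 2 gave -0.39 and -0.46 in young and -0.38 and -0.56 in old mice. Between OHFD and YND it was -0.57 (SE 0.12, edgeR's adjusted p = 0.00176), -0.43 and -0.73 by batch. Age on the normal diet gave -0.11 (edgeR's adjusted p = 0.65).

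The diet calls of Txnrd1 lay close to the threshold even though the groups hardly overlapped. In young mice the call was lost without any of 14 mice, with edgeR's adjusted p up to 0.135. It was kept without YHFD replicate 4, OND replicates 3 to 6 or OHFD replicates 2 to 6. In old mice it was lost without YHFD replicate 1 or 5, any OND mouse, or OHFD replicate 2, 4 or 6, with edgeR's adjusted p up to 0.0911. Without the 4 mice high in Kupffer cell markers, the value in old mice was -0.31 and did not pass (edgeR, adjusted p = 0.101), and that in young mice was -0.42 and passed (adjusted p = 0.00603).

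Nqo1 and Srxn1, both often used as readouts of NRF2, passed in no comparison and pointed opposite ways in the 2 batches. Nqo1 (ENSMUSG00000003849, chr8:107388225-107403206, minus strand) encodes a quinone reductase. It was low, with 4.77, 6.30 and 8.14 CPM as lowest, median and highest in YND and 4.69, 7.68 and 12.2 in YHFD. In OND it had 3.43, 8.28 and 9.93 CPM, and in OHFD 2.37, 8.47 and 21.8 CPM, so the lowest and the highest mouse of all 24 were both OHFD mice. OHFD against YND gave 0.49 on the log2 scale with a 95% interval from -0.18 to 1.16 (edgeR's quasi-likelihood test, adjusted p = 0.256). Batch 1 alone gave 1.31 and passed (edgeR, adjusted p = 0.029), and batch 2 gave -0.45. With the 4 mice high in Kupffer cell markers left out, all of batch 2, the value was 0.93 and passed (edgeR, adjusted p = 0.0174). The part of the batch and of these mice in the spread of Nqo1 was not tested.

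Srxn1 (ENSMUSG00000032802, chr2:152105516-152111376, plus strand) encodes sulfiredoxin, which repairs overoxidised peroxiredoxins, and its promoter held the most matches of those searched. It had 39.6, 41.6 and 46.8 CPM as lowest, median and highest in YND, 33.7, 41.2 and 52.1 in YHFD, 35.7, 47.7 and 54.5 in OND and 24.8, 37.7 and 75.6 in OHFD. Of the OHFD mice, 3 lay below and 2 above every YND mouse. The log2 fold change of OHFD against YND was -0.04 with a 95% interval from -0.38 to 0.31 (edgeR's quasi-likelihood test, adjusted p = 0.89), 0.42 in batch 1 and -0.56 in batch 2. OHFD replicate 3 had the highest level of both Nqo1 and Srxn1, and OHFD replicate 4 the lowest of both.

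Hmox1 (ENSMUSG00000005413, chr8:75093621-75100589, plus strand) was the gene that rose. It encodes the inducible heme oxygenase, which breaks heme down to biliverdin, iron and carbon monoxide and is abundant in macrophages that clear red blood cells. Its lowest, median and highest levels were 3.42, 5.81 and 8.05 CPM in YND, 6.33, 8.76 and 16.1 in YHFD, 4.47, 9.69 and 43.4 in OND and 6.07, 9.56 and 28.2 in OHFD. In each of the other groups 5 of 6 mice lay above every YND mouse, and 2 OND and 2 OHFD mice lay far above the rest of their groups. OND against YND gave 1.52 on the log2 scale (SE 0.41, edgeR's quasi-likelihood test, adjusted p = 0.0205), 1.18 in batch 1 and 1.70 in batch 2. OHFD against YND gave 1.23 (SE 0.40, edgeR's adjusted p = 0.0249), 0.93 and 1.47 by batch. YHFD against YND gave 0.88 (edgeR's adjusted p = 0.202), and OHFD against OND gave -0.29 (edgeR's adjusted p = 0.715). The interaction was -1.17 (SE 0.56, edgeR's adjusted p = 0.537). Without the count filter it was -1.19 and passed (edgeR's adjusted p = 0.00128), in a fit where 587 genes of the whole table passed.

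Markers of Kupffer cells, the resident macrophages of the liver, were highest in the mice with the most Hmox1. All 12 markers were higher in OND than in YND and passed, and 11 of 12 passed in OHFD against YND. In YHFD against YND 1 of 12 passed, with all 12 above 0 and a median log2 fold change of 2.22, and the medians of the endothelial and stellate cell markers there were 1.39 and 1.56. Of 7 endothelial cell markers, 5 were higher in OND than in YND and passed, and of 7 stellate cell markers 6. The 5 mice with the highest Kupffer cell marker sums were OND replicate 4 (1479 CPM), OND replicate 3 (978), OHFD replicate 6 (753), OHFD replicate 4 (577) and YHFD replicate 5 (235). Their Hmox1 levels, 43.4, 37.9, 28.2, 22.5 and 16.1 CPM, were the 5 highest of the 24 mice and in the same order. All 5 belonged to batch 2. At the other end, the 3 YND mice of batch 1 had marker sums of 1.95 to 5.50 CPM and 3 of the 4 lowest Hmox1 levels. In between the orders differed, as in OHFD replicate 3 (place 7 for the markers, 15 for Hmox1) and OND replicate 1 (18 and 7). In the same order, the 5 highest mice had endothelial cell marker sums of 790, 210, 640, 425 and 341 CPM. Their stellate cell marker sums were 432, 196, 319, 344 and 217 CPM.

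Without the 4 mice whose marker sum was over 500 CPM, the log2 fold change of Hmox1 was 0.55 in OND against YND and 0.62 in OHFD against YND, and neither passed (edgeR's quasi-likelihood test, adjusted p = 0.388 and 0.12). YHFD against YND, which left out none of its own mice, was then 0.84 and passed (edgeR, adjusted p = 0.0377), in the comparison where the Kupffer cell marker median was 2.22. OHFD against OND turned from -0.29 to 0.07 (edgeR's adjusted p = 0.907). Leaving out YND replicate 5, OND replicate 3 or OND replicate 4 also ended the call of OND against YND (edgeR's adjusted p = 0.0532, 0.0578 and 0.0762), and YND replicate 5 or OHFD replicate 6 that of OHFD against YND (adjusted p = 0.0555 and 0.0701). Genes that respond within minutes to cell isolation were also higher in OND than in YND. Of 9 tested genes of that list 7 were higher and 1 lower, against 7.26% and 1.24% of all genes. In OHFD against YND 6 were higher and 1 lower, against 17.3% and 12.9% of all genes. The part of Kupffer cells and of isolation in the level of Hmox1 was not tested.

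**Figure D3:**
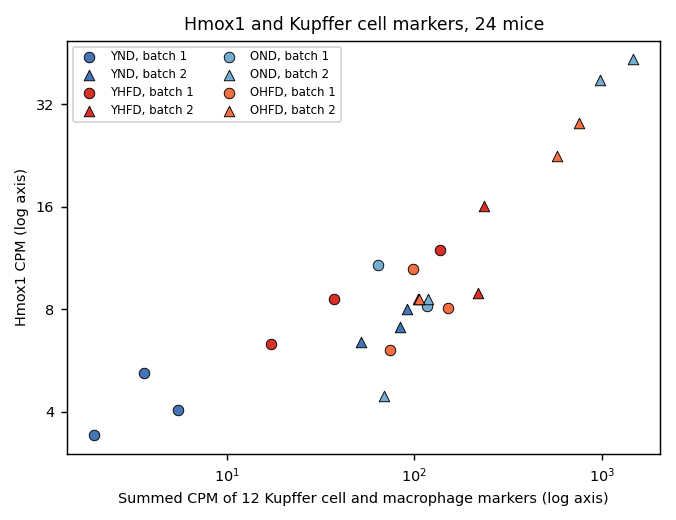
Hmox1 level of each mouse against the summed level of 12 Kupffer cell and macrophage markers, both in CPM on log axes. Colours mark the 4 groups, circles batch 1 and triangles batch 2. The 5 mice at the upper right, all triangles, rank the same way on both axes, from 235 to 1479 CPM for the marker sum and from 16.1 to 43.4 CPM for Hmox1.

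Cat (ENSMUSG00000027187, chr2:103453849-103485160, minus strand) was lower in OHFD than in YND and varied most among old mice. Its lowest, median and highest levels were 2703, 3139 and 3617 CPM in YND, 2052, 2806 and 3224 in YHFD, 977, 2203 and 3039 in OND and 932, 2134 and 2989 in OHFD. Of the OHFD mice, 4 of 6 lay below every YND mouse, as did 5 of 6 OND mice. OHFD against YND gave -0.64 on the log2 scale (SE 0.21, edgeR's quasi-likelihood test, adjusted p = 0.025), -0.56 in batch 1 and -0.74 in batch 2. Age gave -0.52 on the normal and -0.44 on the high-fat diet (edgeR's adjusted p = 0.133 and 0.234). Without OHFD replicate 2, 4 or 6 the call of OHFD against YND was lost (edgeR's adjusted p = 0.0563, 0.0763 and 0.0574). It was also lost without the batch term, with only the mice of the 2 groups (edgeR, adjusted p = 0.0718 and 0.0603) and by limma (adjusted p = 0.0566). Batch 1 and batch 2 alone did not give the call either (edgeR, adjusted p = 0.115 and 0.187).

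The mice high in Kupffer cell markers were low in Cat and Gclm. Counted from the lowest of the 24 mice, the 5 mice listed for Hmox1 ranked 2, 5, 3, 1 and 6 for Cat and 3, 4, 2, 1 and 6 for Gclm, but 1, 18, 3, 2 and 12 for Gclc. All 5 were of batch 2, in which the mean CPM of Cat and of Gclm was lower than in batch 1 in each of the 4 groups. Leaving these 4 mice over 500 CPM out, OHFD against YND was -0.39 for Cat and no longer passed (edgeR's quasi-likelihood test, adjusted p = 0.059). It was -0.41 for Gclm, -1.37 for Gclc, -0.36 for Gsr and -0.40 for Txnrd1, and these passed (edgeR's adjusted p = 0.0243, 0.00017, 0.0142 and 0.0101). The part of Kupffer cells in these falls was not tested.

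The levels of the 10 genes varied together to different degrees over the 24 mice. With batch means removed, log2 CPM of Gclm and Cat had a Pearson correlation of 0.91, Gclm and Txnrd1 of 0.84, Gclc and Gclm of 0.81, and Nqo1 and Srxn1 of 0.81. Hmox1 ran against Cat at -0.71. These are descriptions over mice that share libraries, groups and depth. The 5 genes of the whole table most like Nqo1 by this measure were Srxn1 (0.81), Prps1 (0.80), Umad1 (0.80), Plscr2 (0.79) and Idh2 (0.79) of 13582 genes. The other 8 of the 10 genes lay far down this order, from Nfe2l2 at 0.42 and place 1226 to Hmox1 at -0.14 and place 9302. With group means removed as well, Nqo1 correlated with Gclc at 0.80, Srxn1 at 0.79, Txnrd1 and Cat at 0.73 and Gclm at 0.72. Its correlation was then 0.59 with Gsr, 0.37 with Nfe2l2, 0.02 with Keap1 and -0.37 with Hmox1. With only batch means removed, the 5 genes most like Nfe2l2 were Gm36251 (0.77), Cpsf6 (0.74), Agbl3 (0.71), Gm43597 (0.67) and 1810059H22Rik (0.66). The nearest of the 10 genes to Nfe2l2 were Srxn1, at 0.48 and place 188, and Keap1, at 0.47 and place 197.

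Of 32 other genes commonly listed as NRF2 targets, 30 were tested, and those that passed with diet were all lower. In YHFD against YND 6 passed, all lower (Gstp1, Osgin1 and G6pdx among them), with a median log2 fold change of -0.24 over the 30 genes. In OHFD against OND 6 passed, all lower (again with Gstp1, Osgin1 and G6pdx), with a median of -0.27. These counts moved when single mice were left out. For diet in young mice the count was 2 or 3 without any YND mouse, any YHFD mouse but replicate 4, or OND replicate 2, and for diet in old mice it was 2 without OND replicate 2. With age on the normal diet 1 was lower, Gstp1, where 1.24% of all genes were lower. With age on the high-fat diet 0 passed by edgeR, where 2.24% of all genes passed. There, 7 had an unadjusted p under 0.05 by edgeR, DESeq2 called 1 and limma 0. OHFD against YND had 11 lower (7 without OHFD replicate 4) and 1 higher, Cbr3, a carbonyl reductase with means of 0.250 CPM in YND and 1.78 in OHFD. Of all genes, 1.59%, 1.64% and 12.9% were lower with diet in young mice, with diet in old mice and in OHFD against YND, and 17.3% were higher in the last. Without the 4 mice high in Kupffer cell markers the numbers lower were 11, 6 and 7 in these comparisons, where 2.95%, 1.41% and 8.55% of all genes were lower.

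The genes of this list with the smallest adjusted p were Gstp1, Osgin1 and G6pdx. Gstp1, a glutathione transferase that conjugates electrophiles, had a mean of 993 ± 284 CPM (SD, n = 6) in YND, 261 ± 75.1 in YHFD, 546 ± 179 in OND and 268 ± 90.1 in OHFD. Its log2 fold change was -1.94 in young mice (SE 0.27, edgeR's quasi-likelihood test, adjusted p = 0.000224) and -1.05 in old mice (adjusted p = 0.0307). All YHFD mice lay below all YND mice. Glutathione transferase genes have near-identical copies, so their counts are uncertain where reads could be shared. Osgin1, an oxidative stress induced growth inhibitor, had 262 ± 95.8 CPM in YND, 81.8 ± 28.2 in YHFD, 229 ± 74.3 in OND and 93.8 ± 43.2 in OHFD. Its fall was -1.70 on the log2 scale in young (edgeR's adjusted p = 0.00136) and -1.28 in old mice (edgeR's adjusted p = 0.0155). G6pdx, which makes NADPH in the pentose phosphate pathway, was low at 5.48 ± 1.04 CPM in YND, 2.68 ± 0.79 in YHFD, 8.95 ± 3.40 in OND and 3.65 ± 1.13 in OHFD. It fell by 1.02 and 1.23 on the log2 scale with diet in young and old mice (edgeR's adjusted p = 0.0287 and 0.0125), and 6 of 6 and 5 of 6 mice on the high-fat diet lay below all mice on the normal diet.

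Of 15 regulators and partners of NRF2 that were tested, 1 passed in YHFD against YND (6.67%, against 3.5% of all genes), 1 in OND against YND (6.67%, against 8.5%) and 1 in OHFD against YHFD (6.67%, against 2.24%). Gsk3b, a kinase that marks NRF2 for KEAP1-independent degradation, was lower in YHFD against YND (-0.38, edgeR's quasi-likelihood test, adjusted p = 0.0481), OND against YND (-0.36, adjusted p = 0.0381) and OHFD against YND (-0.56, adjusted p = 0.000894). Crebbp, a coactivator of NRF2, was higher with age on the high-fat diet (0.77, edgeR's adjusted p = 0.0452). Bach1, a repressor that competes for antioxidant response elements, passed in OHFD against YND at -0.72 (edgeR's adjusted p = 0.0054), with all 6 OHFD mice below all YND mice. In that comparison 4 of the 15 genes passed (26.7%, against 30.2% of all genes), Bach1 and Gsk3b lower, and Crebbp and Rbx1, a subunit of the ubiquitin ligase, higher.

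Genes of the neighbouring pathways moved in both directions. Of 22 other antioxidant enzymes, such as superoxide dismutases, glutathione peroxidases and peroxiredoxins, Sod3, the extracellular superoxide dismutase, rose in YHFD against YND (1.94, edgeR's quasi-likelihood test, adjusted p = 0.0398) and in OND against YND (2.697, adjusted p = 0.00362). Gpx3, the plasma glutathione peroxidase, rose in OND against YND by a fitted 4.81 (edgeR's adjusted p = 0.00318) from a mean of 0.17 CPM. Both were also higher in OHFD against YND. Against YND, most markers of Kupffer, endothelial and stellate cells were higher in OND and OHFD as well, and in YHFD their medians were above 0 with 1 gene of each list passing. The part of those cells in the values of Sod3 and Gpx3 was not tested. Gpx1, the main cellular glutathione peroxidase, was lower in OND than in YND (-0.48, edgeR's adjusted p = 0.0493), at 996 ± 183 CPM (SD, n = 6) against 1428 ± 165. In all, 1 of the 22 passed in YHFD against YND (4.55%, against 3.5% of all genes), 3 in OND against YND (13.6%, against 8.5%) and 2 in OHFD against YND (9.09%, against 30.2%). Of 15 tested genes of glutathione supply and turnover, Glo1, which removes methylglyoxal with glutathione, fell in OND against YND (-0.56, edgeR's adjusted p = 0.0106), with all 6 OND mice below all YND mice. Cbs, which feeds cysteine synthesis, and Glo1 were the 2 lower genes of that list in OHFD against YND (-0.45 and -0.43, edgeR's adjusted p = 0.00917 and 0.0168), 13.3% of the list, near the 12.9% of all genes that were lower. Ggt6, a gamma-glutamyltransferase, did not pass, at -0.52 in OHFD against OND (edgeR's adjusted p = 0.076).

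Of 14 genes of NADPH supply, G6pdx passed with diet in both ages, and 4 passed in OHFD against YND, all lower (28.6%, against 12.9% of all genes lower and 30.2% in either direction). Me1, the cytosolic malic enzyme, had the largest of these falls, -1.74 on the log2 scale (edgeR's quasi-likelihood test, adjusted p = 0.000764), from 392 ± 55.1 to 137 ± 88.7 CPM (SD, n = 6), -0.79 in batch 1 and -2.83 in batch 2. The others were H6pd at -0.60, Aldh1l1 at -0.50 and Nadk2, the mitochondrial NAD kinase, at -0.46 (edgeR's adjusted p = 0.0139, 0.021 and 0.0296). Of 8 genes of heme handling and iron storage, Fech, the last enzyme of heme synthesis, was lower in OHFD against YND (-0.58, edgeR's adjusted p = 0.00543). Blvrb, a biliverdin reductase, did not pass with diet in young mice at -0.59 (edgeR's adjusted p = 0.0697), nor did Blvra, the other biliverdin reductase, with age on the high-fat diet at 0.43 (adjusted p = 0.212). Over the 95 tested genes of these 6 lists, each counted once, 8 passed with diet in young mice (8.42%), 6 with diet in old mice (6.32%), 6 with age on the normal diet (6.32%), 1 with age on the high-fat diet (1.05%) and 24 in OHFD against YND (25.3%). Over all tested genes the shares were 3.5%, 3.01%, 8.5%, 2.24% and 30.2% in the same order. Counted in either direction, the lists together lay above them for diet and below them for age and for OHFD against YND. By direction, 19 of the 95 were lower and 5 higher in OHFD against YND, where 12.9% and 17.3% of all genes were. With age on the normal diet 4 were lower and 2 higher, where 1.24% and 7.26% of all genes were.

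**Figure D4:**
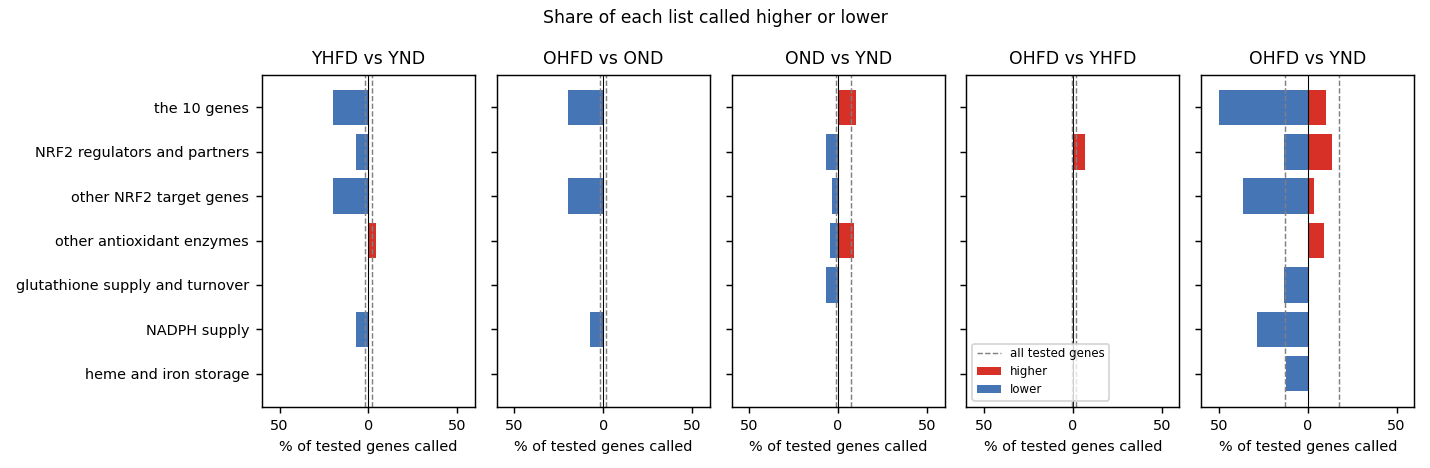
Share of the tested genes of each list that passed as higher (red, to the right) or lower (blue, to the left), in percent, for 5 comparisons. Dashed lines give the shares over all 13583 tested genes. The 10 genes and the other NRF2 targets stand at 20% lower with diet at both ages, and in OHFD against YND 5 of 10 and 11 of 30 genes are lower.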

How the data were processed

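The data were RNA-seq libraries of hepatocytes from 24 male mice. Per gene, the authors deposited raw counts, obtained by 2-pass STAR 2.7.3a alignment to mm10 with Gencode, SAMtools filtering and counting with HTSeq 0.11.2, as named in the paper's methods and the submitters' processing notes. The authors also deposited FPKM values computed with CuffLinks, adjusted between batches with ComBat according to the deposited table, and these were used to compare levels between genes. Handling of strand and duplicates is not given in the sources used here, so reads may be shared between overlapping or near-identical genes. The reads had no molecular identifiers, so the true error exceeds counting error.

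Counts were fitted with edgeR 4.0.16 (R 4.3.3): TMM scaling, filterByExpr by group, terms for group and batch over the 24 mice, and Benjamini-Hochberg adjustment over all 13583 tested genes. CPM are counts over TMM-scaled library sizes, and log2 CPM used a prior count of 2. Totals ranged from 9200332 to 22185069 counts, and 0 value columns had no matching sample. Each library was taken as 1 mouse, as its label numbers it, and where a number does not stand for a separate animal the p-values measure only the spread between samples, which may be technical. Pairs of mice of a group gave chi-squares of 15.2 or more per degree of freedom, so none was counted as a duplicate. Replicate numbers do not pair the mice: deviations of same-numbered mice had a mean correlation of 0.182, and -0.00199 after batch means were removed.

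The 10 genes and all lists were chosen with earlier results of these data known. The named genes were the 10, and from each other list the 3 with the smallest adjusted p over the diet and age comparisons and all genes called where 5 or fewer were. Cbr3 was named after its value was seen. Gene positions are from GENCODE on GRCm38, the mm10 build, and promoters from RefSeq. Scripts were tested on simulated data. Alternatives were DESeq2 1.42.0, limma 3.58.1 on log2(FPKM + 1), no batch term, a replicate block, RLE scaling, no count filter, only the groups compared, each batch alone, and leaving out single mice.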

Additional observations from a re-analysis of the deposited data

Results flagged for a closer look

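Of 40 sets of 6 mice, 10 genes in 4 groups, 3 had a mouse whose gap to its nearest neighbour was too large a share of the group's range of log2 CPM by Dixon's test (95% critical value for 6 samples), and about 2 would do so by chance. Gclc in OND replicate 4 was the lowest of its group at 6.939 on the log2 CPM scale (123 CPM), and the next mouse had 8.245. Nqo1 was also lowest in OND replicate 4, at 1.832 (3.43 CPM) against 2.885 in the next mouse. Keap1 in YND replicate 4 was the lowest of its group at 5.354 (40.8 CPM), and the next mouse had 5.544.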

How the results depend on the processing

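Counts are given for YHFD against YND, OHFD against OND, OND against YND, OHFD against YHFD, OHFD against YND and the interaction, in this order, first for the 10 genes and then for all genes. The main fit gave 2, 2, 1, 0, 6 and 0 of the 10 genes and 475, 409, 1155, 304, 4100 and 0 of all genes. DESeq2 called 3, 3, 2, 1, 6 and 0, and 1213, 1085, 1761, 850, 5008 and 7. RLE scaling gave 2, 2, 1, 0, 6 and 0, and 465, 478, 1171, 328, 4150 and 0. Without the batch term the counts were 0, 0, 1, 0, 5 and 0, and 174, 266, 628, 116, 3049 and 0. Without a count filter they were 2, 1, 2, 1, 6 and 1, and 1473, 1108, 2053, 1235, 4623 and 587. The 2 genes for YHFD against YND were then not those of the main fit. Gsr and Txnrd1 no longer passed (edgeR's quasi-likelihood test, adjusted p = 0.113 and 0.0964). Gclc, which was lower, and Hmox1, which was higher, passed instead (adjusted p = 0.000301 and 0.000313). With only the mice of the groups compared, where the interaction has no fit, the counts were 5, 0, 1, 0 and 5, and 2302, 15, 1331, 48 and 2094. limma on log2(FPKM + 1) called 1, 0, 0, 0, 4 and 0, and 152, 172, 39, 33, 2237 and 0. Batch 1 alone gave 0, 0, 0, 0, 2 and 0, and 130, 15, 93, 9, 919 and 0, and batch 2 alone 0, 0, 0, 0, 2 and 0, and 9, 16, 2, 0, 617 and 0, with fewer mice in each. Without the 4 mice high in Kupffer cell markers, added after seeing the data, the counts were 4, 1, 0, 0, 5 and 0, and 1074, 401, 94, 94, 2605 and 0. Leaving out each mouse in turn gave 0 to 3, 0 to 3, 0 to 1, 0 to 1, 4 to 6 and 0 of the 10 genes, and 146 to 998, 84 to 823, 586 to 1592, 40 to 813, 3314 to 4722 and 0 to 1 of all genes. The cause of these shifts was not tested beyond the smaller number of mice in some settings.

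With a replicate block in place of the batch term, 1, 0, 2, 0, 6 and 0 of the 10 genes and 283, 445, 1350, 131, 3478 and 1 of all genes passed. The replicate block ended the calls of Txnrd1 with diet in young and old mice (edgeR's quasi-likelihood test, adjusted p = 0.0686 and 0.0524) and of Gclc with diet in old mice (adjusted p = 0.0598), and brought Gclc in OND against YND to a call (adjusted p = 0.0397). It changed no other call of the 10 genes. The numbers belong to different mice and are not a pairing.

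The direction of these fold changes turned, all for values that did not pass in the main fit. OHFD against YND was 0.0086 for Nfe2l2 and 0.092 for Keap1 in batch 1, and -0.45 for Nqo1 in batch 2. For Srxn1 it was 0.0065 by DESeq2, 0.0091 by RLE scaling, 0.019 without the batch term, 0.42 in batch 1, 0.16 without the mice high in Kupffer cell markers, and from -0.20 to 0.10 with single mice left out. Hmox1 in OHFD against OND was 0.073 without the mice high in Kupffer cell markers, and from -0.52 to 0.044 with single mice left out. The interaction of Gclc was 0.035 by limma, 0.14 in batch 1, 0.010 without the mice high in Kupffer cell markers, and from -0.25 to 0.022 with single mice left out. The numbers of other NRF2 targets that were lower ranged from 0 to 13 for diet in young mice, 0 to 9 for diet in old mice and 4 to 12 in OHFD against YND over the alternative settings. With single mice left out they ranged from 2 to 8, 2 to 9 and 7 to 13. With 30 to 271 counts per mouse in OHFD, the level of Nqo1 was the one most limited by depth.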
